A study of Mus musculus with 8 samples.

Results

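Translation initiation factors are the proteins that bring a messenger RNA, the small ribosomal subunit and the initiator tRNA together at the start codon. Their genes were examined here as a group in fetal liver haematopoietic stem cells with and without ADAR1, the enzyme that turns adenosine into inosine in double-stranded RNA. The group held the genes whose symbol in the array annotation begins with Eif1 to Eif6, other than the eIF2 kinases and Eif2d, and that have at least 1 probe set naming no other gene; each was read from the brightest such probe set. That gave 42 genes of the 18193 measured, with 114 of the 45037 probe sets tested. Eif3j1, Eif3j2 and Eif4ebp3 are named only on probe sets shared with another gene and so fall outside it, and Eif1, Eif2s1, Eif3g and Eif4g1 were not analysed here.

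Expression was measured on 8 Affymetrix arrays of C57/B6 mice, with 1 mouse an array. The cells came from fetal liver and were sorted as negative for lineage markers and positive for Sca-1 and Kit. There were 3 null arrays (ADAR1 -/-), 3 heterozygous arrays (ADAR1 +/-) and 2 wild-type arrays, the heterozygous and wild-type arrays together being the 5 controls. The labels do not say which part of the gene was removed, in which cells, or the age of the fetuses. Values are log2 of the deposited linear intensity unless called linear, error terms of means are SDs over mice and those of differences are limma standard errors.

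The arrays differed in overall signal. Probe sets above background, the brightest of 27 bacterial control probe sets on each array, made up 40.0%, 46.4% and 44.7% of those tested on the null arrays, 51.2% to 61.2% on the heterozygous arrays and 51.5% and 45.6% on the wild-type arrays. Pairs of null arrays correlated at 0.862 to 0.886 over probe sets, pairs of heterozygous arrays at 0.968 to 0.973 and the wild-type pair at 0.915. The Gapdh 3′ to 5′ signal ratio was 7.45 to 8.73 on null, 4.78 to 9.00 on heterozygous and 4.32 to 4.39 on wild-type arrays. Of the 3 Adar probe sets, the brightest read 5.90, 7.17 and 7.46 on null arrays, against 3.71, 4.01 and 3.31 on heterozygous and 2.94 and 4.14 on wild-type arrays (difference from all controls 3.22 ± 0.41, adjusted p = 0.0170, limma). The other Adar probe sets differed by 0.24 ± 0.40 (adjusted p = 0.835, limma) and -0.16 ± 0.20 (adjusted p = 0.778), so 1 of the 3 was higher in null cells. Since the deleted part is not given, these probe sets are no check of the labels. Of the 9 measured stem and progenitor markers, Gata2 (70.3 to 644 linear) and Tal1 (114 to 273) were well above background on every array. Meis1 read 14.0 to 151 linear. Kit, a sort marker, read only 9.33 to 13.3 linear on null, 13.2 to 23.5 on heterozygous and 11.7 and 20.2 on wild-type arrays, against a linear background of 6.20 to 9.29. The rest were low too, with Mecom at 5.77 to 14.1, Hlf at 6.48 to 18.1 and Flt3 at 6.01 to 11.9. Hoxa9 read 5.90 to 32.4 and Cd34 13.8 to 32.2.

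Summed marker signal of some other liver cell types also differed between arrays. The summed linear signal of 7 measured hepatocyte markers was 57.8 to 75.3 on null arrays, 620 to 1070 on heterozygous arrays and 197 and 617 on wild-type arrays. All 7 differences from all controls were negative, though Ahsg (-0.01) and Fgb (-0.14) were near 0, and only Afp passed the test. For 8 macrophage markers the sums were 52.5 to 62.7 on null, 174 to 332 on heterozygous and 127 and 661 on wild-type arrays, with Adgre1 and Vsig4 at background on every array. Of these 8, 6 differences were negative and 0 were called. For 6 erythroid markers the sums were 582 to 640 on null, 606 to 657 on heterozygous and 294 and 352 on wild-type arrays, with 3 differences negative and 0 called. For 9 stem and progenitor markers they were 373 to 1105, 610 to 728, and 622 and 704 in the same order of groups, with 4 negative and 0 called. The 8 proliferation genes summed to 3602 to 6433 on null, 7878 to 8861 on heterozygous and 8491 and 8688 on wild-type arrays, with 7 of 8 differences negative and 0 called. The part of these signals in the values of the initiation factors was not tested. In RNA from sorted cells, fewer cells of a type and less RNA per cell cannot be told apart.

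As background, eIF2 carries the initiator tRNA to the small subunit, eIF2B recharges eIF2 with GTP, and eIF1A and eIF3 hold the scanning complex together. The cap of the messenger RNA is bound by eIF4E, which joins the scaffold eIF4G and the helicase eIF4A, while 4E-binding proteins compete for eIF4E. Double-stranded RNA can shut initiation down through PKR, encoded by Eif2ak2, which phosphorylates eIF2. Haematopoietic stem cells are known for a low rate of protein synthesis compared with their progeny.

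No initiation factor gene passed an adjusted p of 0.05 in any comparison by limma. Against all controls, 0 of 42 were called higher and 0 lower, where 0.555% of all genes were called higher and 0.379% lower. Against wild type the count was again 0 in each direction (0.39% of all genes higher and 0.126% lower), and against heterozygous 0 in each direction (0.456% and 0.313%). On the brightest probe sets the lowest adjusted p was 0.150 against all controls, 0.468 against wild type and 0.260 against heterozygous cells. Each of these was for Eif3c. A dimmer Eif4b probe set had 0.145 against all controls and 0.126 against heterozygous cells (limma). At an unadjusted p under 0.05, 3 genes were higher and 8 lower in null than in all control cells, where 5.51% of all genes were higher and 7.98% lower, or 5.84% and 15.3% among the 9096 genes brighter than the median gene. The same counts were 2 and 2 against wild type, with 3.37% and 5.91% of all genes, and 2 and 8 against heterozygous, with 5.12% and 7.88%. Of 2209 genes of like intensity (mean between the members' quartiles), 121 were higher and 473 lower against all controls. Against wild type these counts were 128 and 286, and against heterozygous 98 and 414. These comparisons share their null arrays.

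As deposited, 29 of the 42 genes had a negative difference from all controls, 27 from wild type and 32 from heterozygous cells. For all controls that is 69.0% of the members, beside 71.5% of the 2209 genes of like intensity (mean between the members' quartiles), 63.4% of genes brighter than the median gene and 45.9% of all genes. The count was 25 of 42 with quantile and 21 of 42 with cyclic loess normalization, which evens out intensity-dependent differences between arrays. The median difference was -0.33, -0.24 and -0.37 in these comparisons, beside medians of 0.03, -0.00 and 0.06 over all genes. The plot of deviations by gene and array shows this by role: 32 genes were below the control mean on null array 1, 20 on null array 2 and 27 on null array 3.

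**Figure D1:**
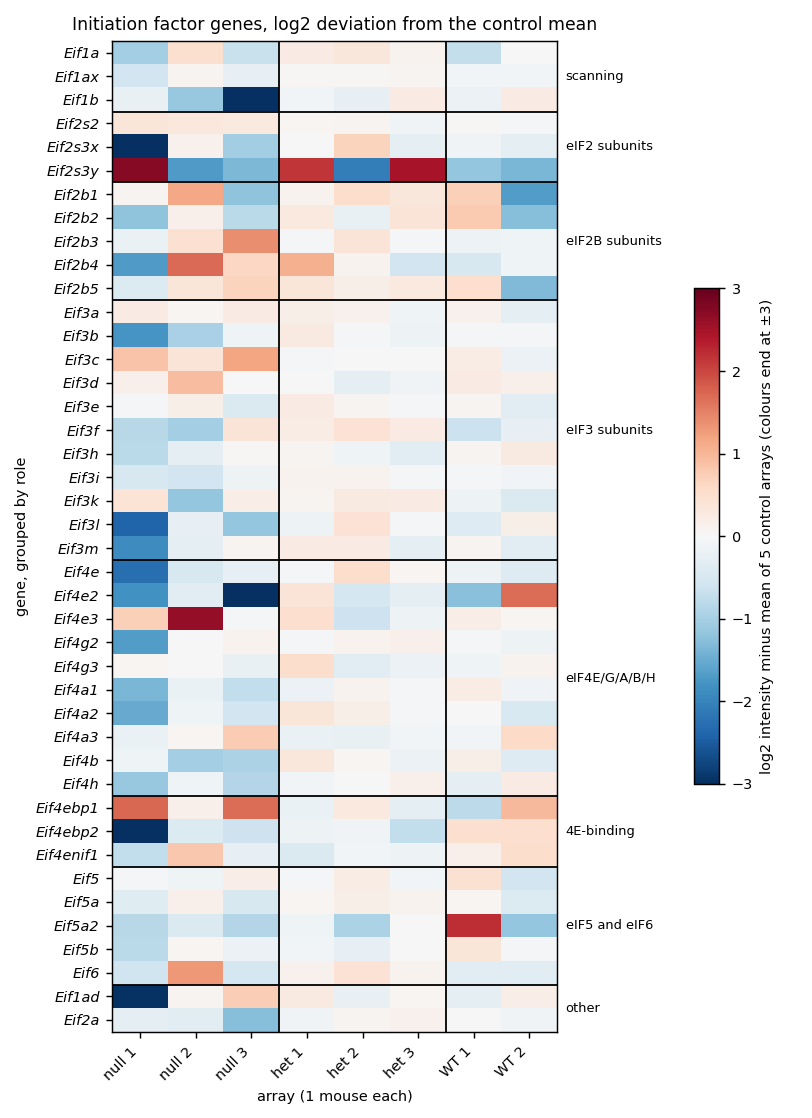
Log2 intensity minus the mean of the 5 control arrays for the 42 initiation factor genes (rows, grouped by role) on the 8 arrays (columns, null first, then heterozygous and wild type); red is above and blue below the control mean, and colours end at 3. Null array 1 is the lowest of all 8 arrays for 19 genes (45.2%, beside 38.6% of genes of like intensity).

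The groups were clear of each other in 5 genes. All 3 null arrays lay above all 5 controls for Eif3c and Eif2s2, and all below for Eif3i, Eif4a1 and Eif2a, leaving 37 genes with overlap. Over all genes, 4.19% lay wholly above and 4.95% wholly below, and among genes brighter than the median gene 3.66% above and 9.11% below. The members' counts thus stood at 2 above and 3 below of 42, near that background. Promoters of 4 of these 5 genes are in the RefSeq table (build GRCm38.p6). The 250 bases before the transcript start are printed 5′ to 3′ on the gene's strand, so that the sequence behind each of these genes can be seen, with an E-box (CACGTG, the site bound by Myc and related factors) in capitals.
Eif3c, chr7:126566367-126566616, minus strand: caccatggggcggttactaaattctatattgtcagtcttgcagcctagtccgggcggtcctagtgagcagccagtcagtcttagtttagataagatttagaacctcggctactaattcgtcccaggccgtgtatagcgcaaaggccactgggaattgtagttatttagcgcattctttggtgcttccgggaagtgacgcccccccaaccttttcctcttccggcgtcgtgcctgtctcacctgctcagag
Eif2s2, chr2:154892907-154893156, minus strand: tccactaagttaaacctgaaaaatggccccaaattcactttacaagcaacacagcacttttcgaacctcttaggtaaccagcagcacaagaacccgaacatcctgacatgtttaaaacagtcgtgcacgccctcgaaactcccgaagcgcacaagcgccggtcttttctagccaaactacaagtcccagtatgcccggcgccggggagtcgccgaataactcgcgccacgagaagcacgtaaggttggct
Eif4a1, chr11:69672424-69672673, minus strand: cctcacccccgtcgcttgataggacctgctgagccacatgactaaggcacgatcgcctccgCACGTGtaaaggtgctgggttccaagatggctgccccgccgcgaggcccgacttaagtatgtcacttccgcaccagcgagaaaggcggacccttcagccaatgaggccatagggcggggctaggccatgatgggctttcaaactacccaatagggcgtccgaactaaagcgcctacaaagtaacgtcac
Eif2a, chr3:58525571-58525820, plus strand: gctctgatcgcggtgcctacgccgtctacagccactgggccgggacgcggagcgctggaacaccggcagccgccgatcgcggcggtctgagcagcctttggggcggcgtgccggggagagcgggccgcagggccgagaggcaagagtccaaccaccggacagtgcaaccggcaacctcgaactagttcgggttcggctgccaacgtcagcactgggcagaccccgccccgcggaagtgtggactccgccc

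Only the Eif4a1 window of these 4 holds an E-box. RefSeq windows were found for 33 of the 42 genes, 45 windows in all, of 32851 in the table, and 3 motifs were searched on both strands. CACGTG was in 22.2% of the members' windows and 6.02% of all windows, in the genes Eif1b, Eif3f, Eif3k, Eif4a1, Eif4e, Eif4h, Eif5a and Eif5a2. The members' windows had a median GC content of 62.8%, against 52.4% over all windows. The core of the interferon response element, GAAANNGAA, was in 2.22% of the members' windows (Eif3a) and 7.13% of all, and TGATGNAA, the core bound by C/EBP and Atf4 pairs, in 2.22% (Eif2s3x) and 3.45%. None of the 4 printed windows holds either of these cores.

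Among the factors of scanning and start-codon choice, Eif1a, Eif1ax and Eif1b, all 3 differences from the controls were negative, with a median of -0.40. Eif1a and Eif1ax encode forms of eIF1A, which keeps the small subunit open for scanning, and Eif1b a relative of eIF1. Eif1b read 7.26, 6.35 and 4.05 on null arrays, against 7.41, 7.23 and 7.75 on heterozygous and 7.32 and 7.75 on wild-type arrays. Null array 1 lay within the control range and null array 3 far below it (difference -1.60 ± 0.63, adjusted p = 0.404, limma). Eif1ax, the brightest of the group, averaged 9.51 ± 0.33 in null, 9.81 ± 0.03 in heterozygous and 9.67 ± 0.01 in wild-type cells (difference -0.24 ± 0.16), and Eif1a 6.68 ± 0.77, 7.31 ± 0.12 and 6.73 ± 0.52 (difference -0.40 ± 0.37). With cyclic loess normalization the median of the 3 was -0.05 and Eif1ax turned positive (0.06).

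Of the eIF2 subunits, Eif2s2 encodes the beta subunit, and Eif2s3x and Eif2s3y the X-linked and Y-linked forms of the gamma subunit. Eif2s2 read 11.20, 11.14 and 11.11 on null arrays, against 10.89, 10.91 and 10.73 on heterozygous and 10.86 and 10.78 on wild-type arrays. The null arrays were all above the controls, by 0.32 ± 0.10 (1.25-fold, 95% interval 0.09 to 0.55, adjusted p = 0.278, limma). The dimmest of its 5 probe sets above background on all arrays differed by -0.72 ± 0.41, while the others were positive.

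Eif2s3x read 5.71, 9.16 and 7.98 on null arrays, against 9.01, 9.69 and 8.75 on heterozygous and 8.94 and 8.77 on wild-type arrays. Null array 1 was the lowest and null array 2 lay within the controls (difference -1.42 ± 0.69, adjusted p = 0.481, limma). Eif2s3y read 7.24, 2.81 and 3.14 on null, 6.64, 2.42 and 6.98 on heterozygous and 3.34 and 3.12 on wild-type arrays. It was high on null array 1 and heterozygous arrays 1 and 3, the same 3 arrays on which Xist was low (4.43 to 5.10, against 9.01 to 9.53 on the other 5) and the Y-linked Kdm5d highest (4.67 to 6.94, against 2.42 to 2.90). The arrays thus show 2 sex patterns, and the Eif2s3y difference of -0.10 ± 1.45 turned to 0.16 with sex as a covariate. The median of the 3 eIF2 genes was -0.10 as deposited, 0.06 with quantile and 0.21 with cyclic loess normalization.

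The 5 subunits of eIF2B, the exchange factor that PKR and the other eIF2 kinases block by way of eIF2, had 4 differences from all controls above 0 and a median of 0.20. Eif2b1 was among these 4 at 0.01 ± 0.67. Against wild type 4 were positive, with a median of 0.51. Against heterozygous cells only 2 were positive and 3 negative, with a median of -0.07. Eif2b3 averaged 5.99 ± 0.80 in null, 5.53 ± 0.26 in heterozygous and 5.31 ± 0.02 in wild-type cells (difference 0.55 ± 0.33, adjusted p = 0.555, limma). Eif2b2, the only one of the 5 below 0 against all controls, averaged 7.58 ± 0.71, 8.36 ± 0.33 and 7.96 ± 1.46 in the same order (difference -0.62 ± 0.50), and the mean of its probe sets differed by 0.31. Eif2b4, encoding the delta subunit, read 3.97, 7.38 and 6.30 on null, 6.74, 5.78 and 5.10 on heterozygous and 5.20 and 5.55 on wild-type arrays, so that its null arrays held both the lowest and the highest value. Wild-type array 2 was below the mean of the other 4 controls for all 5, with a median of -1.59. The median of the 5 was 0.36 with quantile and 0.56 with cyclic loess normalization, but -0.54 without null array 2.

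The 11 measured subunits of eIF3, the large scaffold that binds the small ribosomal subunit, had 8 negative differences from all controls. Their median was -0.34, beside -0.38 for genes of like intensity. Against wild type 6 were negative, with a median of -0.04, and against heterozygous cells 8, with a median of -0.37. Eif3c, encoding a core subunit, read 11.08, 10.62 and 11.40 on null arrays, against 10.16, 10.21 and 10.25 on heterozygous and 10.45 and 10.05 on wild-type arrays. All null arrays were above all controls, by 0.81 ± 0.19 (1.75-fold, 95% interval 0.38 to 1.24, adjusted p = 0.150, limma). That was the lowest adjusted p among the members' brightest probe sets. The 3 other Eif3c probe sets differed by 0.03 ± 0.18, 0.15 ± 0.16 and -0.17 ± 0.31, so the signal of the brightest probe set is not shared by the rest of the gene's probes. Without null array 2, Eif3c passed the test (1.02 ± 0.16, adjusted p = 0.0325, with 0.0325 to 0.592 over its 16 alternatives).

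Eif3i, another eIF3 subunit, read 11.09, 11.01 and 11.43 on null arrays, against 11.69, 11.68 and 11.53 on heterozygous and 11.53 and 11.49 on wild-type arrays. The null arrays were all below the controls, by -0.40 ± 0.13 (95% interval -0.70 to -0.10, adjusted p = 0.309, limma), and its second probe set differed by -0.53. Eif3l read 5.49, 7.64 and 6.73 on null, 7.73, 8.32 and 7.82 on heterozygous and 7.51 and 8.07 on wild-type arrays. Its null arrays 1 and 3 lay below the controls and null array 2 within them (difference -1.27 ± 0.44, adjusted p = 0.339). The next brightest Eif3l probe set, also above background on all arrays, differed by only -0.05 ± 0.23, and by 0.26 from wild type. Eif3b, the subunit that binds the eIF3 core together, read 6.51, 7.32 and 8.15 on null, 8.55, 8.25 and 8.13 on heterozygous and 8.24 and 8.25 on wild-type arrays, with only null array 3 inside the control range (difference -0.96 ± 0.33, adjusted p = 0.333). Eif3a, the largest subunit, averaged 12.15 ± 0.11 in null, 12.02 ± 0.16 in heterozygous and 11.90 ± 0.28 in wild-type cells (0.18 ± 0.14), and the mean of its probe sets differed by -0.15. Differences of the other 6 ranged from -0.69 (Eif3m) to 0.35 (Eif3d), and the median of all 11 was -0.05 with cyclic loess normalization.

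The cap-binding group, eIF4E, eIF4G, eIF4A, eIF4B and eIF4H, had the most negative median of the groups with more than 2 genes, -0.71, with 8 of 10 differences below 0. For scale, 71.5% of genes of like intensity were negative, with a median of -0.38. Eif4a1, encoding the helicase that unwinds the 5′ leader, read 9.00, 10.17 and 9.64 on null arrays, against 10.19, 10.48 and 10.31 on heterozygous and 10.60 and 10.28 on wild-type arrays. The null arrays were all below the controls, null array 2 by the least (difference -0.77 ± 0.25, 95% interval -1.34 to -0.19, adjusted p = 0.307, limma). Its 3 probe sets differed by -0.77 to -0.65. Eif4b and Eif4h encode the cofactors that stimulate the helicase, and were named after their values were seen, as were Eif3i and Eif4a1. Eif4h read 9.04, 10.06 and 9.31 on null, 10.09, 10.17 and 10.33 on heterozygous and 9.91 and 10.43 on wild-type arrays, with null array 2 inside the control range. Its difference was -0.71 ± 0.24 (adjusted p = 0.327, limma), and without null array 2 it passed (-1.01 ± 0.18, adjusted p = 0.0477, with 0.0477 to 0.548 over its 16 alternatives). Eif4b averaged 9.26 ± 0.49 in null, 10.04 ± 0.26 in heterozygous and 9.85 ± 0.39 in wild-type cells (-0.70 ± 0.25, adjusted p = 0.358). Its other probe sets differed by -1.10 ± 0.25 (adjusted p = 0.145, limma) and -0.82 ± 0.31. On the former, the null arrays (8.06 to 8.75) were all below the controls (8.93 to 9.90).

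The cap-binding protein gene Eif4e read 6.15, 7.91 and 8.16 on null arrays, against 8.33, 8.94 and 8.46 on heterozygous and 8.26 and 8.02 on wild-type arrays. Null array 3 lay within the control range, null array 2 just below it and null array 1 far below (difference -0.99 ± 0.45, adjusted p = 0.459, limma). The next brightest Eif4e probe set differed by -0.27 ± 0.60, and by 0.26 from wild type. Eif4e2, a relative that represses some messenger RNAs, read 7.10, 8.59 and 5.91 on null, 9.31, 8.41 and 8.65 on heterozygous and 7.67 and 10.60 on wild-type arrays (-1.73 ± 0.77, adjusted p = 0.446). The null arrays (SD 1.34) stood closer together than the wild-type arrays (SD 2.07). Eif4e3, another cap-binding relative, had a difference of 1.10 ± 0.56 (adjusted p = 0.502) that came from null array 2, at 6.11, beside 4.20 and 3.43 on the other null arrays and 2.85 to 3.99 on the controls. Eif4g2, the relative of eIF4G that works without eIF4E, read 8.63 on null array 1 and 10.32 and 10.41 on the others, against 10.23, 10.42 and 10.45 on heterozygous and 10.25 and 10.16 on wild-type arrays, and its difference turned to 0.06 without null array 1. Other Eif4g2 probe sets above background on all arrays differed by 0.36 ± 0.23 and -1.07 ± 0.48. Eif4a3, the exon junction helicase, was above background on 6 of 8 arrays only. The median of the 10 genes stayed below 0 with quantile (-0.52) and cyclic loess normalization (-0.40), without null array 1 (-0.35) and without null array 2 (-0.89). Genes of like intensity had medians of -0.21, -0.04, -0.23 and -0.52 at these settings. Against wild type without null array 1, the median was -0.11 for the 10 genes and -0.14 for genes of like intensity.

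Of the proteins that hold eIF4E, Eif4ebp1 and Eif4ebp2 encode 4E-binding proteins, whose grip on eIF4E is released by mTOR, and Eif4enif1 the 4E transporter. Eif4ebp1 read 8.56, 7.00 and 8.51 on null arrays, against 6.63, 7.12 and 6.57 on heterozygous and 6.06 and 7.82 on wild-type arrays. Null arrays 1 and 3 were above the controls and null array 2 within them (difference 1.18 ± 0.49, 2.26-fold, 95% interval 0.05 to 2.30, adjusted p = 0.421, limma). Its second probe set differed by 0.64 ± 0.15 (adjusted p = 0.159), and Eif4ebp1 was the sole gene with 2 or more detected probe sets that were all positive. Eif4ebp2 read 3.60, 6.40 and 6.19 on null, 6.65, 6.71 and 6.08 on heterozygous and 7.30 and 7.33 on wild-type arrays. On this probe set null array 1 stood far below the rest and the heterozygous arrays below the wild-type arrays (null minus all controls -1.42 ± 0.64, adjusted p = 0.457, limma). Heterozygous minus wild type was -0.83 ± 0.80 there, but 0.66, 0.67 and 0.51 on the next brightest 3 Eif4ebp2 probe sets, none of which passed. Eif4enif1 differed by -0.06 ± 0.36, a sign that turned with quantile normalization (0.12), cyclic loess (0.24) and 5 other settings.

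The group of Eif5, Eif5b, Eif6 and the eIF5A genes had a median of -0.23 with 3 of 5 negative, and of 0.02 with cyclic loess normalization. Eif5a, the brightest, averaged 11.07 ± 0.34 in null, 11.41 ± 0.06 in heterozygous and 11.13 ± 0.33 in wild-type cells (-0.23 ± 0.20, adjusted p = 0.666, limma). Eif5b, the GTPase of subunit joining, averaged 9.22 ± 0.45, 9.42 ± 0.12 and 9.70 ± 0.28 in the same order (-0.31 ± 0.22). Both turned to values near 0 with cyclic loess normalization, 0.02 and 0.0039. Eif5a2, a paralogue of Eif5a, differed by -0.72 ± 0.71, with 3.43, 3.82 and 3.37 on null, 4.13, 3.31 and 4.27 on heterozygous and 6.47 and 3.10 on wild-type arrays, where wild-type array 1 alone was high.

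The remaining symbols, Eif2a and Eif1ad, encode an alternative carrier of initiator tRNA and a nuclear protein with an eIF1A domain. Eif2a read 6.82, 6.76 and 5.82 on null arrays, against 6.98, 7.19 and 7.22 on heterozygous and 7.10 and 7.00 on wild-type arrays. The null arrays were all below the controls, null arrays 1 and 2 by little (difference -0.63 ± 0.23, 95% interval -1.17 to -0.10, adjusted p = 0.369, limma). Eif1ad read 4.09 on null array 1 and 7.14 and 7.79 on the others, against 7.32, 6.84 and 7.11 on heterozygous and 6.78 and 7.25 on wild-type arrays. Its difference of -0.72 ± 0.75 thus rested on null array 1 and was 0.40 without it.

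**Figure D2:**
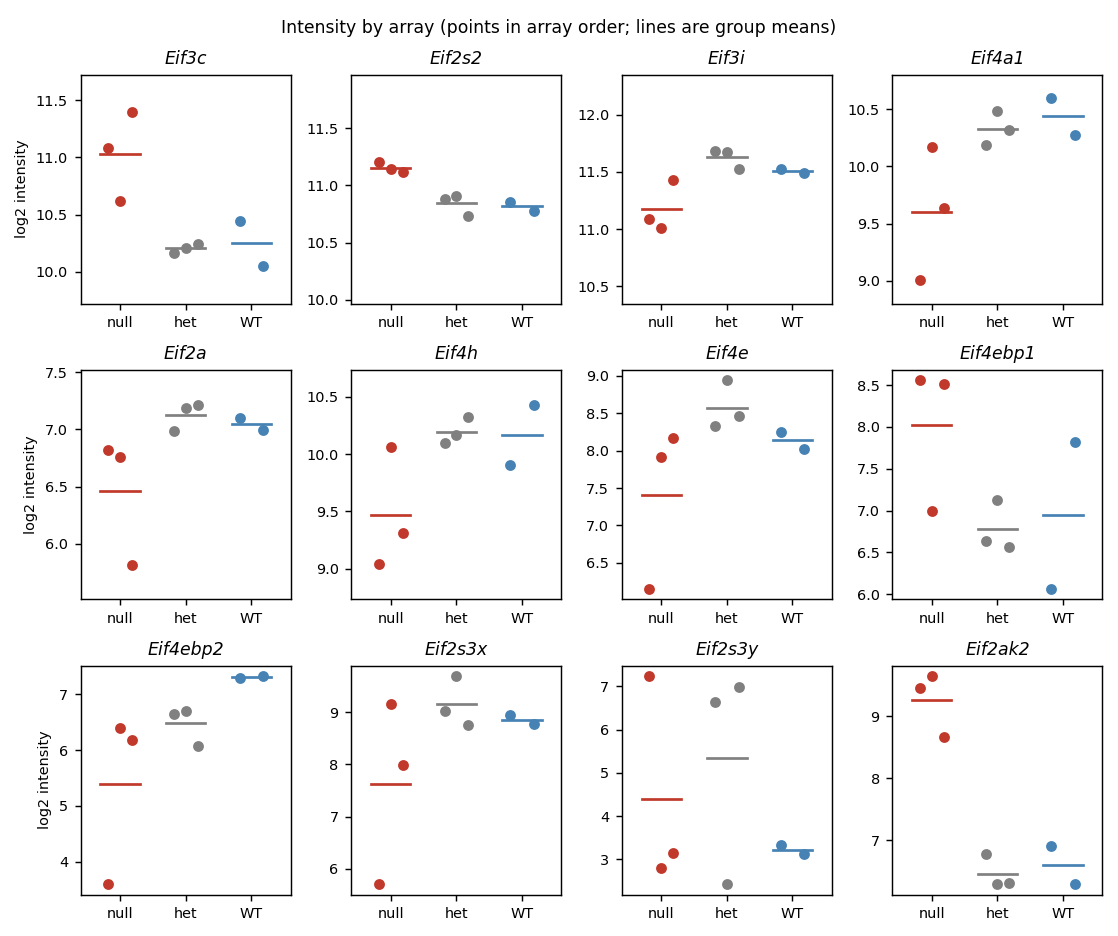
Log2 intensity of 12 genes by group (null, heterozygous, wild type); each point is 1 array (1 mouse) and each line a group mean, with a vertical scale of its own for each gene. Null arrays of Eif3c and Eif2s2 lie above all controls and those of Eif3i, Eif4a1 and Eif2a below. In Eif4e, Eif4ebp2 and Eif2s3x null array 1, the leftmost null point, lies far below the rest. Eif2ak2 is not an initiation factor, and heights cannot be compared between panels.

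In the plot of differences, the 95% interval of 31 genes crossed 0 and that of 11 did not, the same 11 as at an unadjusted p under 0.05. The narrowest interval was that of Eif2s2 and the widest that of the Y-linked Eif2s3y.

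**Figure D3:**
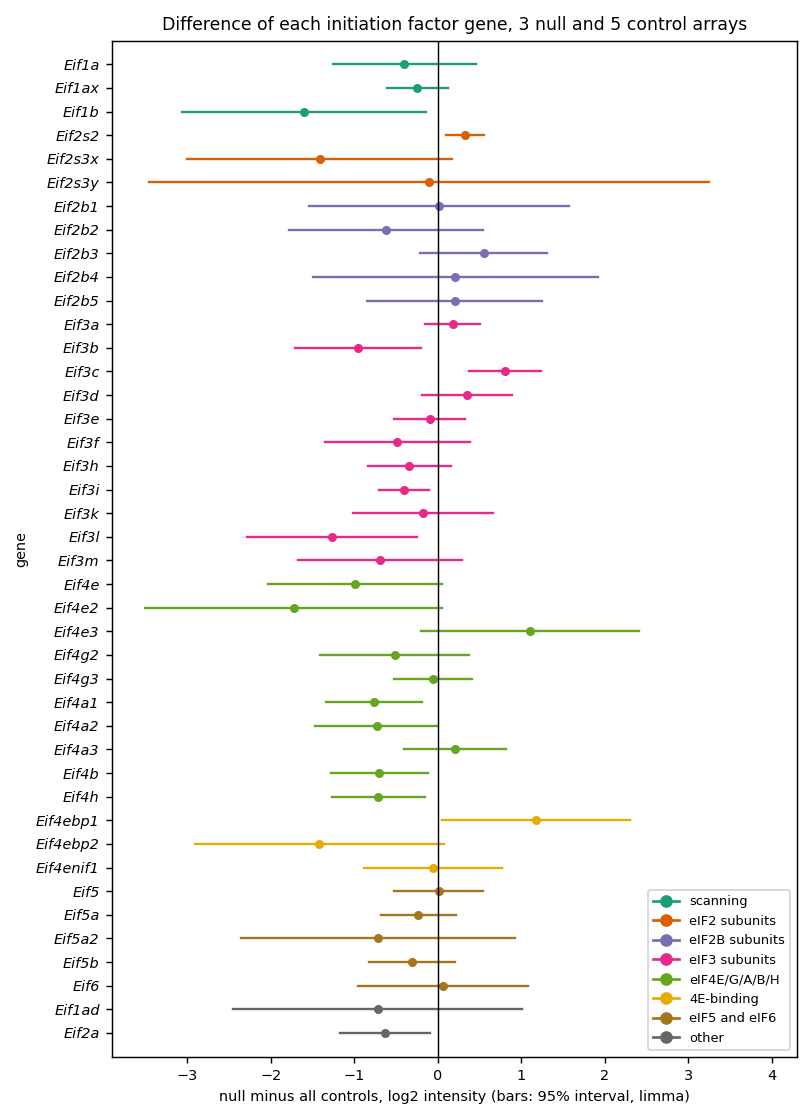
Difference in log2 intensity, null minus all controls, for the 42 genes (points) with 95% intervals from limma (bars), coloured by role, with 3 null and 5 control arrays. Positive values are higher in null cells; as deposited 29 of 42 points lie to the left of 0 (69.0%, beside 71.5% of genes of like intensity), against 21 of 42 with cyclic loess normalization, and no gene passes after adjustment.

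Null arrays differed more among themselves than heterozygous arrays did. The SD over null arrays exceeded that over heterozygous arrays in 36 of 42 genes (85.7%), with medians of 0.737 and 0.188. The same held for 88.0% of the 2209 genes whose mean intensity fell between the members' quartiles (6.90 and 9.97), a set chosen after the data were seen. Null array 1 was the lowest of the 8 arrays for 19 genes, null array 2 for 4 and null array 3 for 5, against 0, 5 and 1 on heterozygous and 1 and 7 on wild-type arrays. For null array 1 that is 45.2% of the members, beside 38.6% of genes of like intensity, 28.2% of genes brighter than the median gene and 16.9% of all genes.

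Genes of like intensity moved as the initiation factors did. The members' median deviation from the controls was -0.58, 0.03 and -0.23 on the null arrays, 0.08, 0.10 and -0.07 on the heterozygous and -0.03 and -0.14 on the wild-type arrays, each control being set against the other 4. For genes of like intensity it was -0.58, -0.09 and -0.29 on null, 0.15, 0.05 and 0.04 on heterozygous and -0.05 and -0.13 on wild-type arrays. Their median difference was -0.38 from all controls, -0.30 from wild type and -0.44 from heterozygous cells, beside -0.33, -0.24 and -0.37 for the initiation factors. The initiation factors were bright genes, 41 of 42 above the median gene and with a median percentile of 93.3, although intensities of different probe sets do not rank transcripts. Quantile normalization brought the median of null minus all controls to -0.13 for the members and -0.21 for genes of like intensity, and cyclic loess to -0.02 and -0.04. Without null array 1 the members' median was -0.11, with 27 negative, and without null array 2 it was -0.52, with 30 negative.

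**Figure D4:**
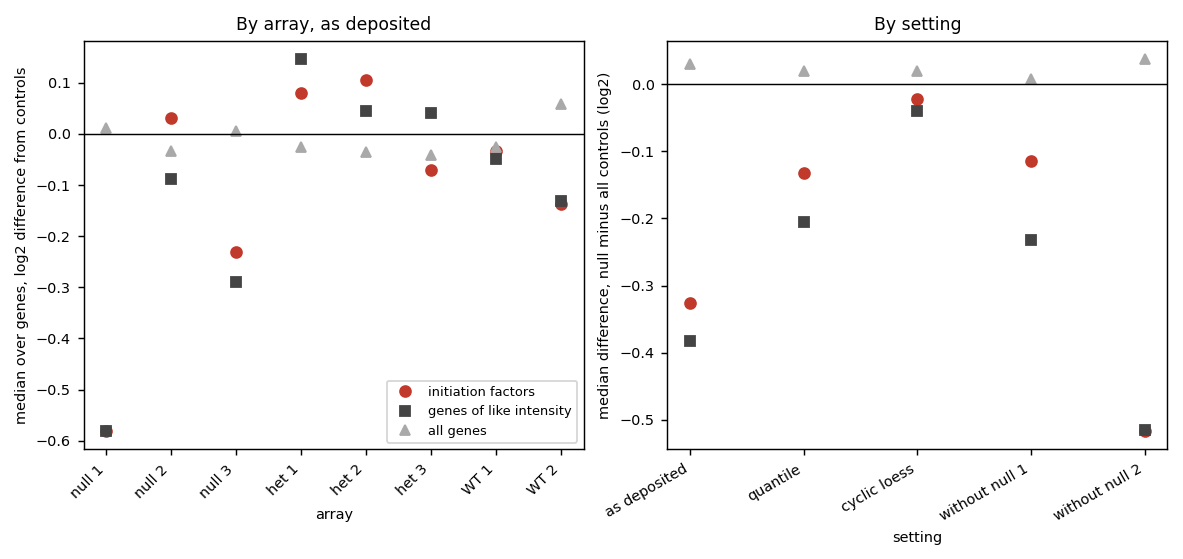
Left, median over genes of the log2 difference of each array from the controls (each control array against the other 4), for the 42 initiation factors, 2209 genes of like intensity and all 18193 genes. Right, median difference of null minus all controls as deposited, with quantile and cyclic loess normalization, and without null array 1 or 2; initiation factors and genes of like intensity are both below 0 at each setting and come nearest to 0 with cyclic loess, at -0.02 and -0.04.

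Detected probe sets of a gene mostly had the same sign, usually the negative one, which 71.5% of genes of like intensity also had. How often probe sets of other genes share a sign was not counted. Of the 114 probe sets, 83 were above background on all arrays and 59 of these had a negative difference from all controls. Among the 23 genes with at least 2 such probe sets, 15 had negative values throughout, 1 positive values throughout, and 7 both signs (Eif2b2, Eif2s2, Eif3a, Eif3c, Eif4g2, Eif5 and Eif5b). None of the 114 probe sets passed in any comparison.

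Loss of 1 copy of ADAR1 was set against wild type in the same model. No member was called higher or lower, as was true of all genes (0% and 0%), and 0 members had an unadjusted p under 0.05 in either direction, against 3% of all genes higher and 2.9% lower. The median difference of heterozygous minus wild type was 0.12, with 29 genes positive, beside -0.05 for all genes and 0.14 for genes of like intensity, and it was 0.01 with cyclic loess normalization. Eif3f, an eIF3 subunit, had the lowest adjusted p, 0.893 (limma), and averaged 10.66 ± 0.13 in heterozygous and 9.92 ± 0.28 in wild-type cells. Eif3f read 10.58, 10.81 and 10.60 on the 3 heterozygous arrays and 9.72 and 10.12 on the 2 wild-type arrays. The difference of 0.74 ± 0.41 did not pass.

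Neighbouring parts of the translation machinery were read the same way. For scale, 45.9% of all genes and 63.4% of genes brighter than the median gene had a negative difference from all controls. Of 13 elongation and termination factors 12 were measured, 9 differences from all controls were negative, the median was -0.18 and 0 were called. Of 20 regulators of cap-dependent initiation 18 were measured, 10 were negative, the median was -0.24 and 0 were called. Among these regulators Pdcd4, an inhibitor of eIF4A, averaged 8.14 ± 1.48 in null, 10.19 ± 0.11 in heterozygous and 9.42 ± 0.57 in wild-type cells (-1.75 ± 0.62, adjusted p = 0.350, limma). Mlst8, an mTOR partner, differed by 1.17 ± 0.71, the release factor gene Etf1 by -1.05 ± 0.60 and Mcts1, a partner of Denr in reinitiation, by -0.60 ± 0.26, none of which passed.

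Among 9 eIF2 kinases and phosphatase subunits, 1 gene was called higher against all controls and 0 lower, and the median was -0.02. Of all genes, 0.555% were called higher and 0.379% lower. Eif2ak2, the interferon-inducible kinase PKR, read 9.45, 9.65 and 8.67 on null arrays, against 6.78, 6.29 and 6.31 on heterozygous and 6.91 and 6.28 on wild-type arrays. It rose in null cells by 2.75 ± 0.26 (adjusted p = 0.00424, limma), with all 3 of its probe sets higher, and passed under each of its 16 alternatives. Ppp1r15a, the stress-induced phosphatase subunit, read 7.16, 5.70 and 3.57 on null, 3.77, 3.71 and 3.30 on heterozygous and 3.56 and 3.14 on wild-type arrays. It differed by 1.98 ± 0.69 (adjusted p = 0.342), and passed without null array 3 (2.93, adjusted p = 0.0268, with 0.0268 to 0.548 over its 16 alternatives).

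Eif2d, a non-canonical initiation factor outside the group by its definition, read 3.14, 4.02 and 3.27 on null arrays, against 7.93, 6.76 and 7.70 on heterozygous and 6.68 and 7.21 on wild-type arrays for its brightest probe set. That signal fell by 3.78 on the log2 scale (SE 0.35, adjusted p = 0.00354, limma). Its 5 other probe sets did not pass, and the mean of all 6 differed by -0.59 (adjusted p = 0.269, with 0.00194 to 0.269 over the 16 alternatives).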

How the data were processed

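RNA of sorted cells was biotin-labelled with a Nugen kit, per the labels, and hybridised to 8 arrays. The authors deposited an RMA-summarised intensity for each probe set on a linear scale, per the submitters' processing notes and the values. Its software version is not given in the sources used here. Log2 of these deposited values was taken with no further scaling. Of 45101 probe sets, 64 controls were left out. Names came from the platform annotation, and all 42 genes matched the reference by gene number.

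The linear models of limma 3.58.1 (R 4.3.3) were fitted to the log2 values with moderated variances and two-sided tests, with 3 groups (5 residual degrees of freedom) or null against all controls (6). P-values were adjusted by Benjamini and Hochberg over 45037 probe sets, with a threshold of 0.05. The script was tested on simulated data.

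The members and lists were chosen with earlier results of these data known. Named were the 3 largest differences and the brightest member of each of 8 role groups, Eif2s3x, Eif2s3y, Eif2d, and of the related lists the called genes and the 2 largest differences; other genes were named after their values were seen, as was the choice of genes set beside the members by intensity. The 17 alternatives covered normalization, a pseudocount of 32, a background filter on 2 arrays, array weights, sex, arrays in the fit, the probe set rule, an intensity trend and each array left out. Replicates are numbered by order of deposit. The number of arrays limits the precision. No per-sample column was left unused (0).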

Additional observations from a re-analysis of the deposited data

How the results depend on the processing

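Over 16 alternatives, 400 values of the 25 initiation factor genes chosen by the rule were recomputed for null minus all controls. Of these, 377 kept their direction and their side of the threshold, 1 gained a call (Eif3c without null replicate 2) and 22 turned in sign; the cause was not tested. None of the genes that turned passed the test in any setting. Those that turned were Eif2s3y with quantile normalization (0.063), cyclic loess (0.21), the sex covariate (0.16), without null replicate 2 (0.69) or 3 (0.52) and without heterozygous replicate 1 (0.43) or 3 (0.52); Eif4enif1 with quantile (0.12), cyclic loess (0.24), the pseudocount of 32 (0.0013), array weights (0.083), without null replicate 1 (0.27) or 3 (0.035) and without wild type replicate 2 (0.069); with cyclic loess Eif1ax (0.061), Eif5b (0.0039) and Eif5a (0.024); with the mean of all probe sets Eif2b2 (0.31) and Eif3a (-0.15); without null replicate 1 Eif4g2 (0.060) and Eif1ad (0.40); and without null replicate 2 Eif2b4 (-0.54). The count of initiation factor genes past the threshold stayed at 0 in all 4 comparisons under all alternatives but 1, the fit of null minus all controls without null replicate 2, where it was 2 (Eif3c and Eif4h); leaving out each array gave 0 to 2. The median difference of null minus heterozygous was -0.060 with cyclic loess, and that of heterozygous minus wild type was 0.014 with cyclic loess and 0.22 with the sex covariate. Leaving out each array gave medians of -0.52 to -0.11 for null minus all controls, -0.38 to -0.03 for null minus wild type, -0.53 to -0.20 for null minus heterozygous and 0.06 to 0.18 for heterozygous minus wild type. No paired analysis was possible because the labels give no replicate numbers that link arrays of different groups. Over the fits that left out each array, Eif2s3y ranged from -1.53 to 0.69, Eif2b4 from -0.54 to 1.17, Eif4g2 from -0.83 to 0.06, Eif4enif1 from -0.49 to 0.27 and Eif1ad from -1.45 to 0.40. For Eif4a3, near background, signal limits what can be seen.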

Other observations

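Probe sets that name an initiation factor together with another gene were outside the group, and the values of the brighter ones are given here. One annotated to Gm5576 or Eif4a3 read 446, 381 and 529 in linear intensity on null arrays, against 784, 653 and 784 on heterozygous and 594 and 801 on wild-type arrays. All null arrays were below all controls (log2 difference -0.68 ± 0.16, adjusted p = 0.160, limma). The brightest of those annotated to Eif3j1 or Eif3j2 read 804, 1227 and 1279 on null, 1230, 1220 and 1109 on heterozygous and 681 and 662 on wild-type arrays (0.20 ± 0.29, adjusted p = 0.811), so that its wild-type arrays were the lowest. One annotated to Ankhd1 or Eif4ebp3 read 20.2, 109 and 425 on null, 27.9, 26.0 and 48.1 on heterozygous and 26.0 and 92.5 on wild-type arrays (1.35 ± 0.92, adjusted p = 0.599), and null array 3 alone stood far above the rest.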
